A study of Mus musculus with 8 samples.

Results

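Basic helix-loop-helix (bHLH) transcription factors drive the step from neural progenitor to neuron. Members of the class bind the DNA sequence CANNTG, called an E-box, as dimers, usually of a tissue-restricted factor with a broadly expressed E protein. In the embryonic cortex, proneural factors such as Neurog2 act in progenitors of glutamatergic neurons, and Neurod factors act later, in newborn and differentiating neurons. The family was followed here through 9 genes chosen by name: Neurog1, Neurog2, Neurod1, Neurod2, Neurod4, Neurod6, Bhlhe22, Nhlh1 and Tcf4. They are 9 of 21631 protein-coding loci, a locus being the gene's span with 10 kb added on either side.

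The data are ChIP-seq maps of methylated lysine 4 of histone H3 (H3K4me), from whole lysates of the mouse cerebral cortex at E15.5 (day of embryonic development). The antibody is catalogued against H3 carrying 1 methyl group at this residue, a state found at enhancers and around promoters. At active gene starts it commonly gives way to the trimethylated state. The cKO embryos carried Emx1Ires-Cre together with the Prdm16 flox/flox alleles, and the WT embryos carried Prdm16 flox/flox without Cre, so both groups are homozygous for the floxed allele. Emx1-Cre is active in progenitors of the dorsal telencephalon and their descendants, so cells of other origin in a whole lysate keep Prdm16. There were 2 ChIP libraries per genotype. Nothing in the labels says whether they came from separate embryos, so p-values measure only the spread between these libraries, which may be technical. Prdm16 encodes a zinc-finger regulator of transcription expressed in cortical radial glia, and the comparison asks where the mark differs once it is deleted.

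The deposited files are 1 list of broad peaks per library, with no read counts, so sequencing depth is unknown. The cKO lists held 80519 and 82683 peaks over 148 and 166 Mb, against 75314 and 66476 peaks over 130 and 114 Mb in WT. Both cKO libraries were thus called over more of the genome than both WT libraries. In bulk tissue, a mark present in fewer cells and a weaker mark in each cell cannot be told apart. The tissue label was checked against marker loci by the share of a locus under peaks, averaged over the 4 libraries. Dorsal telencephalon genes (8 loci) had a median of 65.1%, interneuron genes 22.0%, endothelial genes 7.15%, microglia genes 5.36% and erythroid genes 0.829%, beside 5.79% for all coding loci. Hbb-bs, Hbb-bt and Alas2, which erythroid cells express, held no peak base in any library.

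Promoter sequences of 4 of the genes are given first, because the starts of Neurog2 and Neurod2 lay outside the mark in several libraries while those of Neurod1 and Nhlh1 lay under it in all. Each runs 5′ to 3′ on the strand of the gene and holds the 250 bases before the annotated transcription start (RefSeq, GRCm38.p6). Capitals mark every CANNTG. Neurog2 is on the plus strand (chr3:127632886-127633135). Its annotated start (127633136) lies inside the gene span used here (127632733 to 127635636), so its printed bases lie within that span too. The other promoters are on the minus strand. These lie at chr11:98329646-98329895 for Neurod2, chr2:79456637-79456886 for Neurod1 and chr1:172057597-172057846 for Nhlh1, and all coordinates are of GRCm38.
Neurog2: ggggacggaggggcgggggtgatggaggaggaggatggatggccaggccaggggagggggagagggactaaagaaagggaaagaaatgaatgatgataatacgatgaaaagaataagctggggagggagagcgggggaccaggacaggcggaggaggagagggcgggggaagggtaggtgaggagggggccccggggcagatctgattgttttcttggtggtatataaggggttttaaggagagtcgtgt
Neurod2: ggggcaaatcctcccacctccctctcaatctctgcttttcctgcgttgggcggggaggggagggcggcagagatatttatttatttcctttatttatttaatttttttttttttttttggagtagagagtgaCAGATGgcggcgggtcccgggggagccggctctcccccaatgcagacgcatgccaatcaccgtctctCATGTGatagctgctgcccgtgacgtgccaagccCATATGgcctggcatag
Neurod1: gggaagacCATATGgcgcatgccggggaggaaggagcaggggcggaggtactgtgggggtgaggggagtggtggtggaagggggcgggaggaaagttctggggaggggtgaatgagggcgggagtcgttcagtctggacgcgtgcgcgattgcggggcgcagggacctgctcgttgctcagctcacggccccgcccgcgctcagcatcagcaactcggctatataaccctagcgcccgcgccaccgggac
Nhlh1: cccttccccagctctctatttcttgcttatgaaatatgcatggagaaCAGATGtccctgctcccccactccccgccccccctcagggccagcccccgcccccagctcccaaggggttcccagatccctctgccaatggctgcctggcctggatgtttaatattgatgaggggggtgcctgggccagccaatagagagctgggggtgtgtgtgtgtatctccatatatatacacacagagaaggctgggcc

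The Neurod2 promoter held 3 E-boxes, which begin at positions −118, −51 and −17, where −1 is the base before the start. That of Neurod1 held 1, at −242, and that of Nhlh1 held 1, at −203. The box of Nhlh1 and the most distant one of Neurod2 have the same letters, CAGATG. The box of Neurod1 and the one nearest the start of Neurod2 also share theirs, and read CATATG. Neurog2 had none in this window, nor did Neurog1 or either annotated start of Neurod4, and Neurod6 had 2, at −162 and −132. Both strands were searched for CANNTG, which reads the same in either direction. Among all 32619 promoters in the RefSeq table, 66.2% held an E-box in their 250 bases. The form in Nhlh1 was present on either strand in 14.4% and the form in Neurod1 in 3.36%. Both are among the E-boxes, so these shares overlap. A match to these letters is a description of the sequence and does not show that a factor binds there.

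H3K4me covered most of these loci far more than it covered the typical coding locus. The median over the 9 members was 44.4% of the locus under peaks, against 5.79% over all coding loci, both as means of the 4 libraries. Every member held peaks in every library. The order of the levels was Neurod2 (87.2% ± 8.92), Neurog2 (73.4% ± 6.92), Tcf4 (62.7% ± 6.50), Nhlh1 (60.7% ± 2.09), Neurod6 (44.4% ± 8.99), Neurog1 (42.8% ± 3.36), Neurod1 (39.2% ± 2.64), Bhlhe22 (30.1% ± 4.91) and Neurod4 (7.36% ± 2.48; SD, n = 4 libraries). Tcf4 and Nhlh1 differed by less than the SD of either, and Neurod6 differed from Neurog1 and from Neurod1 by less than its own SD. Neurog1 and Neurod1 differed by more than the SD of either, but their values overlapped. Neurod2 stood at rank 3 and Neurog2 at rank 15 among the 21631 loci, whereas Neurod4 stood at rank 9335. Among the 9911 loci whose gene spans at most 15 kb, 8 members of which are part, Bhlhe22 was at percentile 92.0 and Neurod4 at percentile 55.6. The other 6 of those 8 were above percentile 96.

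**Figure D1:**
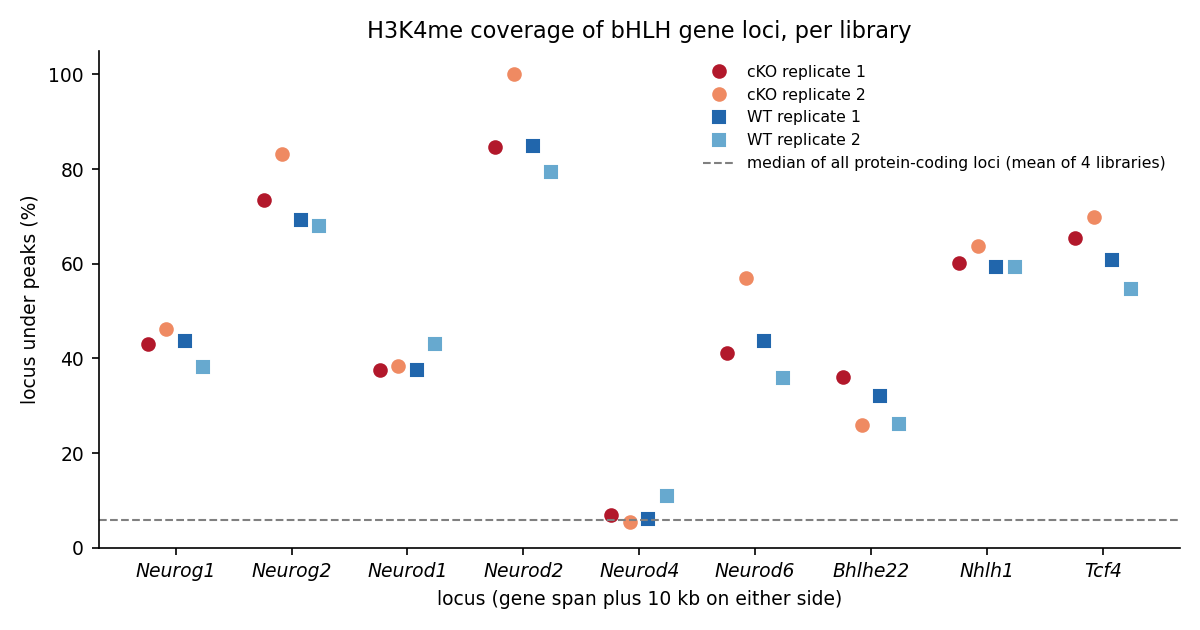
Share of each locus under H3K4me peaks (%), 1 point per library: circles for the cKO libraries and squares for the WT libraries. The dashed line is the median of all coding loci (5.79%); Neurod4 lies between 5.48% and 11.0% and the other 8 members lie above 25% in every library.

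The proneural genes Neurog1 and Neurog2 were marked in different ways. Neurog2 (chromosome 3, 127632733 to 127635636) initiates the glutamatergic neuron programme in dorsal progenitors. Of its locus of 22.9 kb, 73.5% and 83.2% lay under peaks in cKO replicates 1 and 2, against 69.2% and 67.9% in WT replicates 1 and 2. The cKO values were both above the WT values. The covered bases lay mostly beside the gene. A peak of 10.5 and 9.81 kb in cKO, and of 10.3 and 8.90 kb in WT, ended just before the gene, so that the flank on that side was 99.6% and 97.5% covered in cKO, against 99.9% and 89.0% in WT. In the gene span itself 23.2% and 39.4% of the bases were under peaks in the cKO libraries, against 0% and 33.0% in WT. The annotated start, which lies inside the gene span, was not under a peak in any library. The nearest upstream peak lay 448 and 659 bases from it in cKO and 412 and 451 bases from it in WT. None of the 250 promoter bases printed above, which also lie inside the gene span, was under a peak. A small peak in the gene, of 0.674 and 1.85 kb in cKO, was called at 0.958 kb in WT replicate 2 and not called in WT replicate 1. The next long block began 5324 and 5452 bases past the first base of the gene in cKO, against 5469 and 5515 bases in WT.

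Neurog1 (chromosome 13, 56250478 to 56252180), the paralogue with a related proneural role, was covered over its whole span in all 4 libraries. Of its locus of 21.7 kb, 43.1% and 46.2% lay under peaks in cKO, against 43.6% and 38.2% in WT, and the genotypes overlapped. Each library called 3 peaks there. The central peak was 4.46 and 3.71 kb wide in cKO and 4.45 and 3.56 kb wide in WT, and it included the start and the full 250 bases before it. A peak of 4.50 and 5.84 kb in cKO, and of 4.47 and 4.52 kb in WT, lay upstream of the gene.

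Among the Neurod genes, Neurod2 and Neurod6 act in differentiating projection neurons, Neurod1 in intermediate progenitors and newborn neurons, and Neurod4 is a proneural-type factor of differentiating neural cells. Neurod2 (chromosome 11, 98325415 to 98329645) had the highest covered share of the members. Its gene span was 18.6% and 100.0% covered in cKO, against 17.9% and 0.709% in WT. Peaks covered 84.7% and 100.0% of its 24.2 kb locus in cKO, against 84.8% and 79.3% in WT. In 3 of the 4 libraries, 2 long peaks left a gap over the gene, of 3.71 kb in cKO replicate 1, and of 3.68 and 4.23 kb in WT replicates 1 and 2. These gaps held 81.4% of the gene span in cKO replicate 1, and 82.1% and 99.3% in WT. In cKO replicate 2 the locus was a single peak of 30.5 kb, at rank 40 by width among 82683 peaks. The gap was thus present in 1 of 2 cKO libraries and in both WT libraries. The start site lay under a peak in cKO replicate 2 and in WT replicate 2, and 268 and 211 bases from the upstream peak in cKO replicate 1 and WT replicate 1. The promoter printed above was free of peaks in cKO replicate 1, wholly covered in cKO replicate 2, covered in small part in WT replicate 1 and wholly covered in WT replicate 2. The upstream peaks, which also cover the neighbouring gene Gm33099 (4.81 kb away), were 13.4 kb wide in cKO replicate 1, and 13.4 and 13.6 kb in WT.

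Neurod6 (chromosome 6, 55677818 to 55681263) was covered over 41.2% and 56.9% of its 23.4 kb locus in cKO, against 43.6% and 35.8% in WT. Again cKO replicate 2 stood apart, with 1 peak of 11.2 kb across the gene where the other 3 libraries had 2 or 3 peaks separated by gaps. The gene span was 28.0% and 100.0% covered in the cKO libraries and 55.9% and 21.6% covered in WT. The start was under a peak in all 4 libraries.

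Neurod1 (chromosome 2, 79452637 to 79456636) was marked asymmetrically, with 1 long peak over its start and the upstream flank. That peak was 8.21 and 8.53 kb wide in cKO, against 8.65 and 7.83 kb in WT, and it covered the promoter printed above completely. It ended inside the gene, so that 54.6% and 60.5% of the span was covered in cKO, against 61.9% and 46.3% in WT. The flank past the other end of the gene was 8.28% and 6.78% covered in cKO, against 3.82% and 25.2% in WT. The locus as a whole was 37.6% and 38.4% covered in cKO, against 37.6% and 43.1% in WT, so the genotypes overlapped.

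Neurod4 (chromosome 10, 130268152 to 130280254) had 3 short peaks in each library. They covered 7.02% and 5.48% of its 32.1 kb locus in cKO, against 5.99% and 11.0% in WT. One lay at the start, 0.627 and 0.534 kb wide in cKO and 0.615 and 2.23 kb wide in WT, so the high value of WT replicate 2 came from this peak. The second lay within the gene, and the third lay past the other end. All 4 libraries had these 3 peaks at the same places.

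Bhlhe22 (chromosome 3, 18054325 to 18057514) encodes a bHLH repressor that helps to set the area identity of projection neurons, and Nhlh1 (chromosome 1, 172052292 to 172057596) encodes a factor of newly formed neurons. The Bhlhe22 locus of 23.2 kb was 36.1% and 26.0% covered in cKO, against 32.0% and 26.1% in WT, and the genotypes overlapped. Its gene span was 58.7% covered in cKO replicate 1 and 0% covered in cKO replicate 2 and in both WT libraries. Peaks flanked it on both sides in every library. Nhlh1 was the opposite case. Its gene span was 95.2% and 90.3% covered in cKO, against 92.4% and 85.9% in WT, by a peak of 9.81 and 9.15 kb in cKO and of 9.29 and 9.48 kb in WT. The whole locus of 25.3 kb was 60.2% and 63.7% covered in cKO, against 59.4% and 59.3% in WT, so both cKO values were above both WT values. The outermost peak reached into the neighbouring gene Ncstn (8.42 kb away) in cKO replicate 2 and in WT replicate 1.

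**Figure D2:**
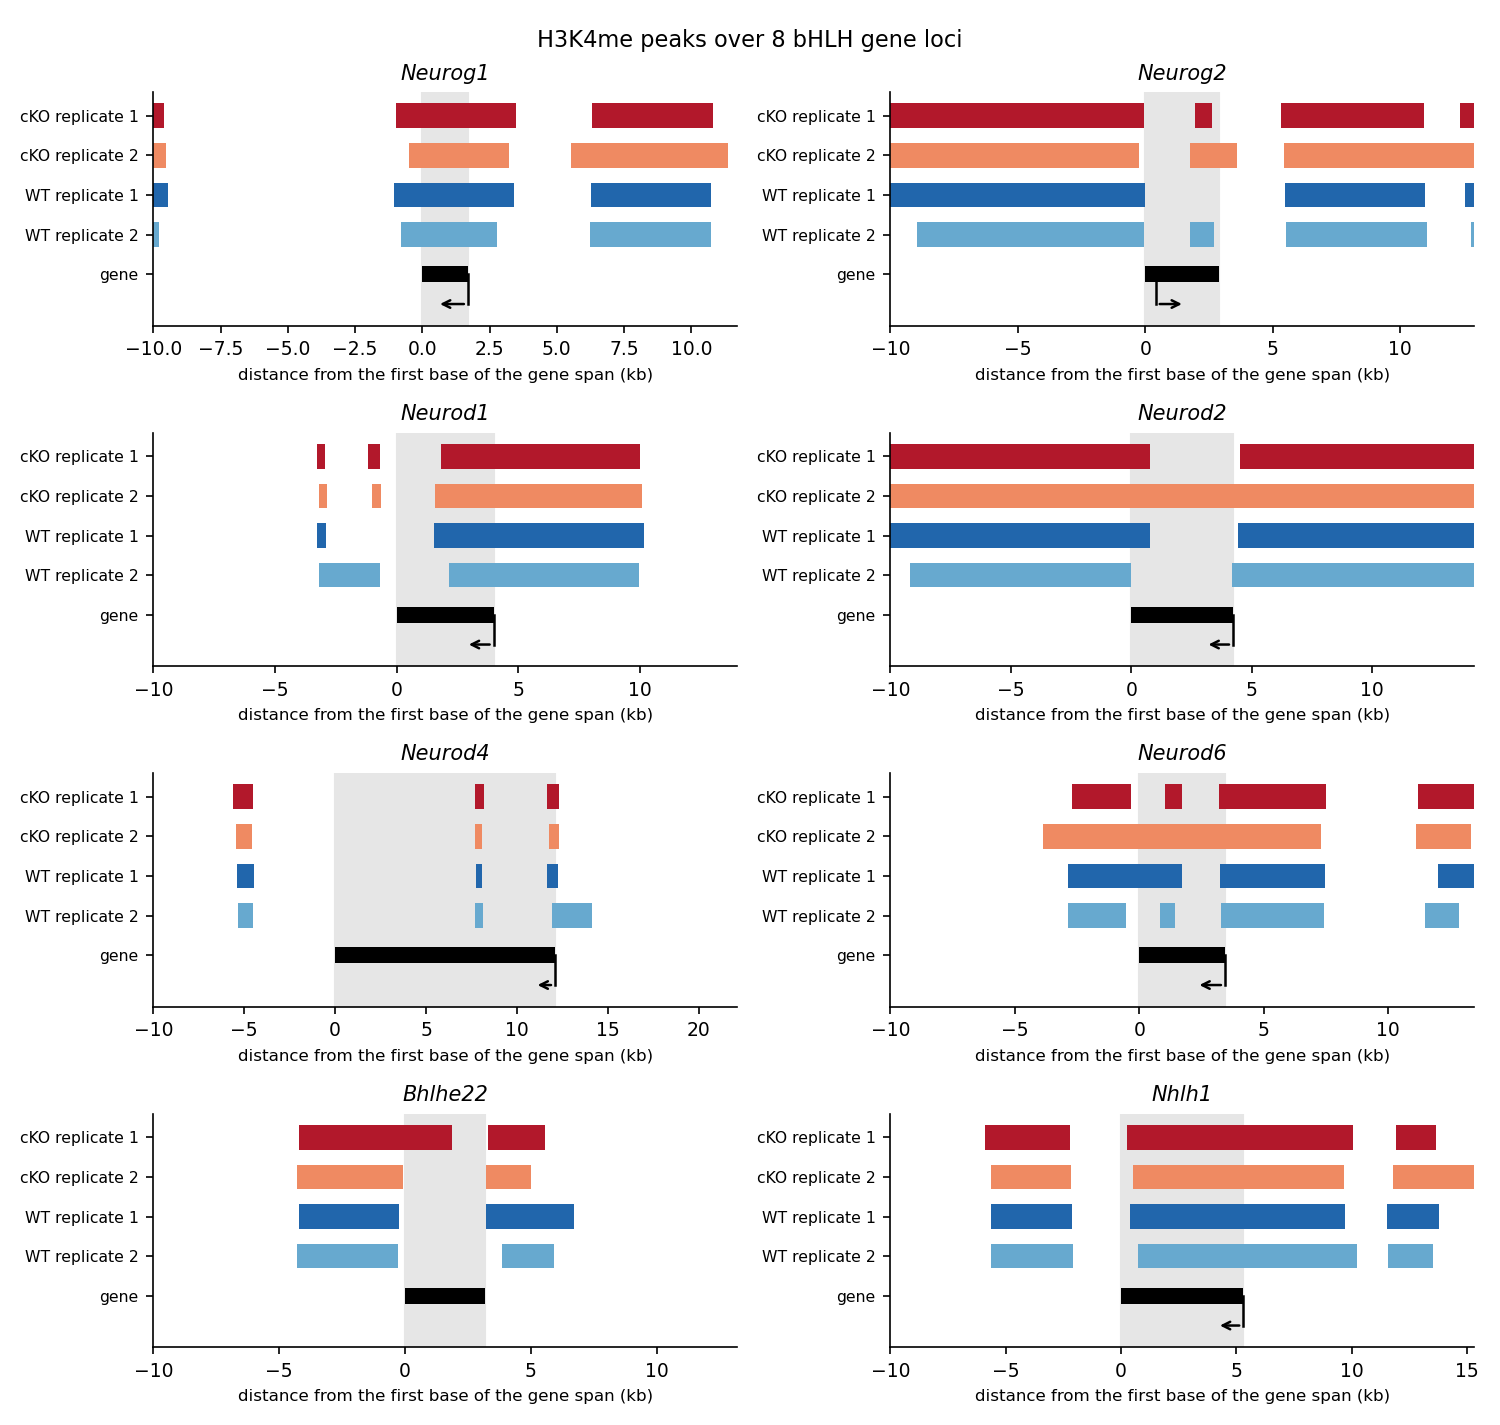
Peaks of each library over 8 of the loci, drawn to scale by distance from the first base of the gene span (kb), with cKO rows above WT rows. The black bar and grey band are the gene span, and the arrow is the annotated start and its direction where one is given. Peaks flank Neurog2, Neurod2 and Bhlhe22 and leave most of the gene span uncovered in most libraries. They run across Neurog1 and Nhlh1 in all 4.

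The position of the mark around the start was compared with that at other genes. Start sites were annotated for 7 of the members (not Bhlhe22 or Tcf4). Of 28 pairs of a member and a library, the start was under a peak in 22, against 47.7% over 11855 kept coding loci with a start. At 1 kb upstream it was 25 of 28 members and libraries, against 28.4% of kept loci. At 900 bp downstream, where coverage over all kept loci was highest (54.4%), it was 14 of 28. At 3 kb upstream the member count was 20 of 28, against 9.65% over kept loci, and at 3 kb downstream it was 8 of 28, against 20.9%. The kept loci were not matched to the members for coverage. At 10 kb upstream the member count was 8 of 28, against 8.22% over kept loci. At 10 kb downstream it was 12 of 28, against 9.77%. The 4 libraries share their genes, so these counts are descriptions. By gene, 5 of the 7 members had the start covered in all 4 libraries and 1 (Neurog2) in none. The backgrounds were 21.3% and 51% of 21045 annotated starts, a wider set that also holds starts of loci not kept. Of these 21045 annotated starts, 5.14% were uncovered in all 4 libraries while peaks lay within 5 kb on both sides in every library. Neurog2 was not one of these, since in WT replicate 1 the next peak was 5066 bases downstream.

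**Figure D3:**
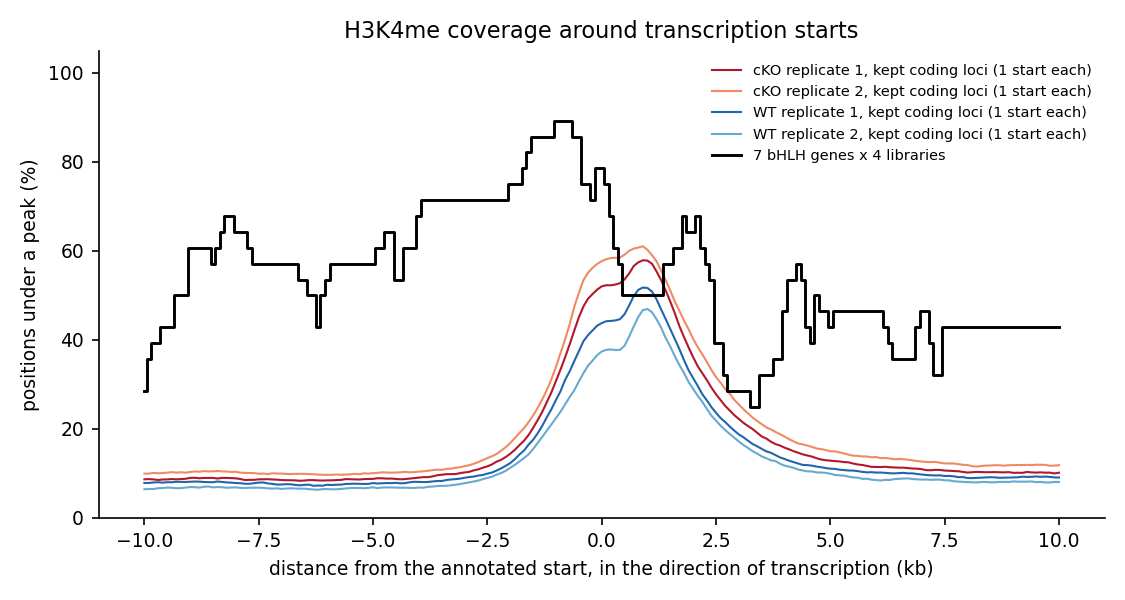
Share of positions under a peak (%) by distance from the annotated start in the direction of transcription (kb), for kept coding loci in each library (coloured lines) and for 7 member genes in 4 libraries together (black line). Coverage of kept loci is highest 900 bp past the start (54.4% over the libraries), while the members are covered in 25 of 28 cases 1 kb upstream and in 14 of 28 at 900 bp downstream.

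Tcf4 (chromosome 18, 69343429 to 69687967) encodes an E protein, the class of broadly expressed partners with which proneural factors dimerise, and loss of 1 copy of the human gene causes Pitt-Hopkins syndrome. Its 365 kb locus held 239 and 255 kb under peaks in cKO, against 222 and 199 kb in WT, and both cKO values were above both WT values. By covered share it ranked 2 among 557 loci whose gene spans at least 300 kb, where the median was 4.40%. The longest peak was 43.1 and 41.3 kb in cKO, against 38.8 and 38.8 kb in WT. In each list it was among the 15 widest peaks. The mark was uneven along the gene. Of 34 windows of 10 kb that lie wholly within it, 11 were at least 90% covered on average, and 1, which begins 140 kb past the first base, was under 10% (5.32%). The longest stretch covered in all 4 libraries was 27.3 kb (69598487 to 69625777). Both cKO values exceeded both WT values in 16 of the 34 windows, and the reverse held in 0. The backgrounds were 36.9% and 4.15% of windows in the genome with a peak in any library, which were not matched to Tcf4 for coverage. The flanks outside the gene were nearly free of peaks, with at most 6.99% of a flank covered in any library.

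**Figure D4:**
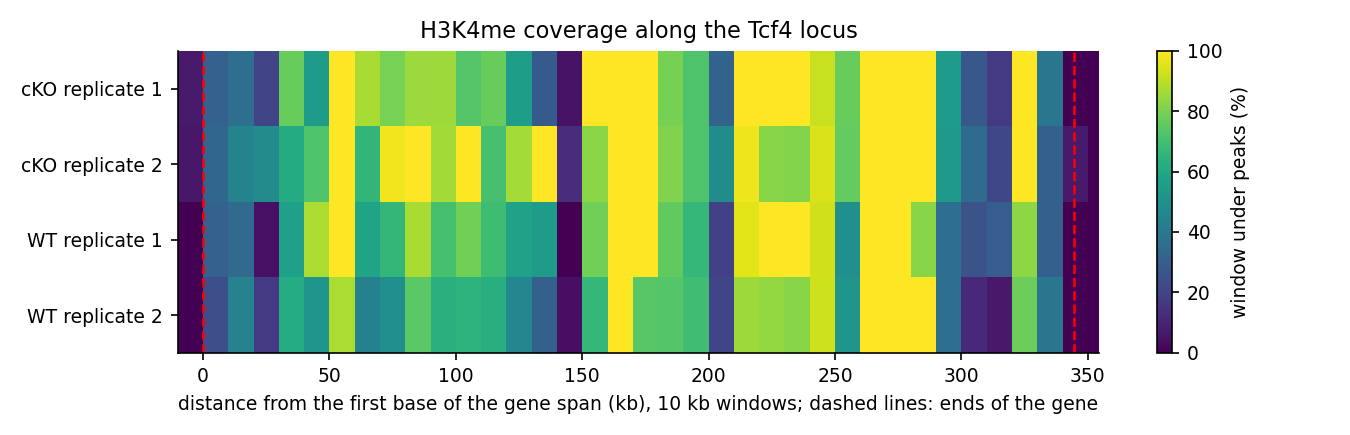
Share of each 10 kb window of the Tcf4 locus (the last is shorter) under peaks (colour, %) by distance from the first base of the gene span (kb), with the cKO libraries above the WT libraries and dashed lines at the ends of the gene. The windows around 160 and 270 kb are high in all 4 libraries and that at 140 kb is low in all, and both cKO values exceed both WT values in 16 of the 34 windows within the gene.

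The genotypes were compared with limma over 14941 loci that had a mean of at least 1000 covered bases, on log2(bases + 500), after each library was centred on its median. All 9 members were among them. No locus passed an adjusted p of 0.05 in either direction, a background of 0% higher and 0% lower, and no member did. At an unadjusted p under 0.05 the background was 5.56% of loci higher and 4.44% lower in cKO. There 3 of the 9 members had negative values, namely Tcf4, Neurod1 and Nhlh1, and no member had a positive one. The log2 differences, cKO minus WT, were −0.26 ± 0.146 for Neurog1, −0.20 ± 0.125 for Neurog2, −0.46 ± 0.178 for Neurod1 and −0.22 ± 0.112 for Neurod2 (SE, 2 libraries per genotype). Those of the remaining members were −0.71 ± 0.372 for Neurod4, −0.10 ± 0.156 for Neurod6, −0.31 ± 0.224 for Bhlhe22, −0.32 ± 0.133 for Nhlh1 and −0.15 ± 0.0557 for Tcf4. The limma adjusted p-values lay between 0.474 and 0.823.

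For 7 of the 9 members the sign of the difference rests on the centring. All 9 members were negative after centring, with a median of −0.26, against −0.038 over all loci, of which 55% were negative. Without centring, the median difference over all loci was 0.35 (higher in cKO). There 7 of the 9 members were positive and only Neurod1 (−0.08) and Neurod4 (−0.32) were negative. All 9 lay below that median over all loci, the highest being Neurod6 at 0.28. Centring shifts all loci alike, so this nearly restates the negative centred values and is not a separate result. On centred values both cKO libraries lay below both WT libraries at 7 members, against a background of 27.2% of loci. They lay above them at 0 members, against 17.3%. The cKO libraries were also both lower at 7 of 9 bHLH antagonists, 15 of 20 listed targets of Neurog and Neurod factors and 7 of 8 dorsal telencephalon genes. The same held at 3 of 11 other neural bHLH activators and 3 of 7 interneuron genes. It also held at 6 of 14 kept bHLH factors of non-neural lineages, where 3 others had both cKO libraries higher. The target and dorsal telencephalon lists share genes, such as Tbr1, so their counts are not separate. On covered bases both cKO libraries lay above both WT libraries at 3 members (Neurog2, Nhlh1 and Tcf4), against a background of 59.8% of loci. They lay below them at 0, against 1.22%. Highly covered loci also have little room to gain. Full coverage in both cKO libraries would have given Neurod2 a centred value of −0.10, Neurog2 0.15 and Nhlh1 0.35, whereas Neurod4 could have reached 3.00. With lists cut to equal covered length the median over the members was 0.04, and Neurog1 (−0.57), Neurod1 (−0.23) and Neurod4 (−0.74) were the negative members.

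**Figure D5:**
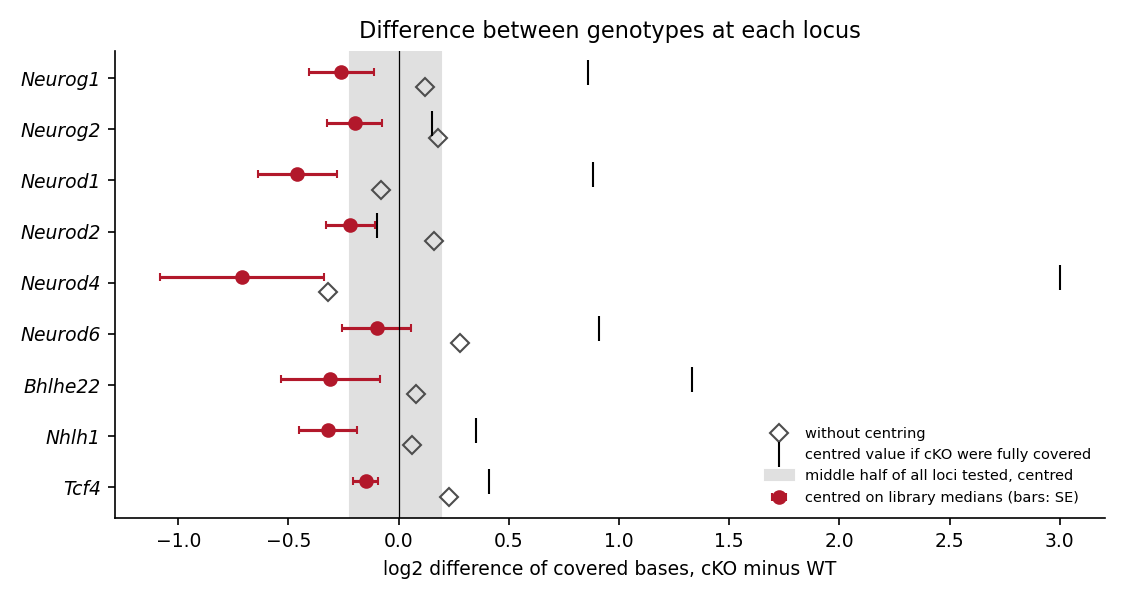
Log2 difference in covered bases between the genotypes, cKO minus WT, at each member: red points are centred on library medians (bars: SE, 2 libraries per genotype), open diamonds are not centred, and black ticks are the centred value that full coverage in cKO would give. All 9 centred values are negative and 7 of the 9 uncentred values are positive; the grey band spans the lower to the upper quartile of the loci tested, from −0.22 to 0.19.

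All 52 intervals covered in both WT libraries within the 9 loci touched a peak in both cKO libraries, whose lists are wider, against a background of 94.4% of such intervals in the genome. With lists of equal covered length it was 40 of 51 (78.4%), against 65.6% in the genome, and with equal numbers of peaks 50 of 52 (96.2%), against 87.0%. Tcf4 held 28 and 30 peaks in WT replicates 1 and 2, and each other member held 2 to 4, so these shares rest largely on Tcf4. Only 1 interval of at least 200 bp was covered in both cKO libraries and free of peaks in both WT libraries over its whole length, at the first bases of the Tcf4 gene span (69343588 to 69344194, 607 bp). The fold enrichment the authors' caller gave its peaks was 3.12 and 3.79 in cKO replicates 1 and 2, below the medians of those lists (3.99 and 3.81). No interval was WT-only. As background, 14% of coding loci held such a cKO-only interval and 1.59% a WT-only one. Among loci of genes of at least 300 kb, like Tcf4, 69.1% held a cKO-only interval and 17.8% a WT-only one. Where stretches within partly shared intervals were counted too, 15 were cKO-only and 2 WT-only, and 13 of the 15 lay in Tcf4, with 10.6 kb in all. As background, 38.1% of coding loci held a cKO-only stretch and 6.03% a WT-only one, and among genes of at least 300 kb the shares were 86.5% and 42.9%. Over the whole genome 89.7% of such stretches were cKO-only.

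In 5 lists of other genes of the bHLH network, no locus passed the limma test. Among other neural bHLH activators (11 loci) the median was 19.2% of the locus under peaks, and Ptf1a, a factor of pancreatic and inhibitory neuron development, stood at 49.6% ± 8.25 (SD, n = 4 libraries). Their median log2 difference was −0.12 and 8 of 11 were negative, with Atoh7, a factor of retinal ganglion cells, at −0.41 ± 0.336 (SE). The bHLH factors of non-neural lineages (18 loci, 14 kept for the test) had a median of 11.8%. Lyl1, a blood factor whose locus overlaps that of Nfix, reached 71.5% ± 0.561, and the tendon factor Scx, which overlaps Bop1, 44.5% ± 3.80. Their median difference was −0.13, with Tcf21 at 1.06 ± 0.576 and Lyl1 at −0.39 ± 0.136. The other E proteins differed in level, Tcf3 at 36.5% ± 7.95 and Tcf12 at 6.52% ± 1.65, with log2 differences of −0.03 ± 0.138 and 0.00 ± 0.212.

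Antagonists of the class, the Id proteins that sequester E proteins and the Hes and Hey repressors (9 loci), had a median of 35.4% of the locus covered, led by Hes5 (63.3% ± 1.27; SD, n = 4 libraries) and Hes1 (62.7% ± 3.45). All 9 were negative after centring, with a median of −0.27, and Id4 (−0.58 ± 0.219, SE) and Hey2 (−0.56 ± 0.269) were farthest from 0. Genes described as targets of Neurog and Neurod factors (20 loci) also had a median of 35.4%, with Tbr1 (64.0% ± 6.49), a factor of deep layer neurons, and Rnd2 (58.9% ± 4.49), a GTPase of migrating neurons, on top. Of these 18 were negative, with a median of −0.22. Btbd17 stood at −0.44 ± 0.152 and Insm1, a factor of intermediate progenitors, at −0.35 ± 0.155. The smallest limma adjusted p in these 5 lists was 0.454.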

How the data were processed

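H3K4me ChIP-seq peak lists of 4 libraries were used, 2 per genotype; input libraries were not analysed here. Per the labels' protocols, native chromatin was digested with micrococcal nuclease. The build was mm10 and the tools MACS2 2.1.1, Bowtie2 2.2.8, cutadapt and FastQC, per the submitters' processing notes; peak-calling options are not given in the sources used. The authors deposited for each peak a score, a fold enrichment (ratio), and −log10 p and −log10 q values, used only to describe or rank peaks within a list. Coverage values depend on how widely a library was called.

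Peaks on chromosomes 1 to 19 and X were kept. Gene spans and starts came from RefSeq (GRCm38.p6); each of the 9 members matched 1 locus. Covered bases per locus were computed in pandas 2.3.3 and numpy 2.4.6 (Python 3.11.15) and tested with limma 3.58.1 in R 4.3.3 (trend, Benjamini-Hochberg, 2 against 2, no block). Interval code and fit were tested on simulated data. The members and lists were chosen with earlier results of these data known. All members were named; of each other gene list, the 2 largest absolute differences and the 2 highest levels, with marker lists given by medians and 1 gene under this rule not reported here. The definition of an uncovered start between peaks and the 10 kb windows of Tcf4 were chosen after values were seen.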

Additional observations from a re-analysis of the deposited data

How the results depend on the processing

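No member passed the threshold under any alternative setting (limma adjusted p from 0.0962). Of the 132 values, 1 for each member kept under each setting, 116 kept the sign. Without centring the values turned to 0.12 (Neurog1), 0.18 (Neurog2), 0.16 (Neurod2), 0.28 (Neurod6), 0.08 (Bhlhe22), 0.06 (Nhlh1) and 0.23 (Tcf4), with a median of 0.12 over the members. With equal covered length they turned to 0.15 (Neurog2), 0.13 (Neurod2), 0.07 (Neurod6), 0.04 (Bhlhe22), 0.02 (Nhlh1) and 0.13 (Tcf4), with a median of 0.04, while Neurog1 stood at −0.57 (its covered share at 35.5%, against 42.8%), Neurod1 at −0.23 and Neurod4 at −0.74. With 0 kb flanks Neurod2 was at 1.25 and Neurod6 at 0.13, from the gene span alone, and the members' median covered share was 51.4%, against 29.1% with 25 kb flanks. With 0 kb flanks Neurog2, Neurod4 and Bhlhe22 fell under the filter and gave no value. Leaving out 1 library gave medians from −0.30 to −0.22; Neurod6 ranged from −0.25 to 0.03 (without cKO replicate 1), Neurod4 from −1.17 (without WT replicate 1) to −0.24 (without WT replicate 2), Neurod1 from −0.66 (without WT replicate 1) to −0.27 (without WT replicate 2), Neurog2 from −0.29 (without WT replicate 1) to −0.11 (without WT replicate 2), and Bhlhe22 from −0.61 (without cKO replicate 1) to −0.004 (without cKO replicate 2). The count of loci called over the genome was 327 without the filter (183 higher, 144 lower) and between 0 and 98 with 1 library left out (98 without WT replicate 1, 8 without WT replicate 2). The cKO-only intervals in member loci numbered 0 with equal numbers of peaks and 0 with equal covered length, where 2 were WT-only. With 25 kb flanks, 66 of 68 WT intervals (97.1%) touched a peak in both cKO libraries. Counting stretches, an alternative chosen after seeing the data, gave 15 and 2. The cause of these changes was not tested. Nothing in the labels says that equal replicate numbers pair libraries of the 2 genotypes. Deviations of equal numbers had r = −0.0962 over 14941 loci. With 2 libraries per genotype this value cannot decide whether they were paired. The replicate block gave 0 calls and a median of −0.26. Depth is unknown, so an uncovered base shows only that no peak was called there.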
